A study of Homo sapiens with 4 samples.

Results

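Newly made RNA of 10 genes of the actin and tubulin cytoskeleton was followed in K562, an established chronic myeloid leukaemia cell line. The genes were taken by name, with earlier results of these data known. They were the actins ACTB and ACTG1, the actin regulators PFN1 and CFL1, the alpha-tubulins TUBA1A, TUBA1B and TUBA1C, and the beta-tubulins TUBB, TUBB2A and TUBB4B. All 10 were among the 60279 genes of the human count table and among the 17322 genes with enough reads to test, and 9 were among the 11777 genes of a deposited table of production rates. No rate for TUBA1B was used here. The cells were untreated apart from the label, 4-thiouridine, taken up during 5 or 15 min. Each label time has 2 libraries, called 5-1, 5-2, 15-1 and 15-2 here by label time and replicate number. RNA that had taken up the label was biotinylated at its thiol groups, pulled down and sequenced (TT-seq), after RNA of Drosophila S2 cells had been mixed in as a spike-in. The libraries held 4339981 to 5051370 human reads, and 308978 and 318710 fly reads after 15 min against 803914 and 897018 after 5 min. Whether libraries of the same label time stem from separate cultures is not given, so p-values reflect no more than the differences among these 4 libraries, and those may be technical. Of 10 markers of erythroid leukaemia cells all were tested, with summed levels of 2580 to 2803 counts per 1000000 reads (CPM) after 5 min and 1803 to 1846 after 15 min. The 11 markers of T, B, monocyte, fibroblast, epithelial and endothelial cells summed to 110 to 111 CPM after 5 min and 83.6 to 83.8 after 15 min, with MS4A1 and CDH5 at 0 reads in every library.

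Actin monomers assemble into filaments that give the cell its shape and let it move, and alpha- and beta-tubulin pair up to build microtubules. Profilin (PFN1) hands monomers to growing actin filaments, and cofilin (CFL1) severs old ones. Both systems feed back on their own genes. Free actin monomers hold back the coactivators of the transcription factor SRF, which drives actin genes through the CArG box. Free tubulin dimers trigger decay of tubulin mRNAs while these are being translated, a process in which TTC5 recognises the first residues of the new tubulin chain as it leaves the ribosome. That form of control acts on finished mRNA in the cytoplasm, whereas short labelling reads mostly RNA made within minutes.

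The opening of each tubulin coding sequence is shown first, because it encodes the stretch that TTC5 reads. The first 30 coding bases of the principal spliced transcript are given from GENCODE 29 (build GRCh38), with the first 12 bases, the start codon and the codons next to it, in capitals. The start codons lie at chr12:49188977-49188979 (minus strand) for TUBA1A, chr12:49131298-49131300 (minus) for TUBA1B, chr12:49265182-49265184 (plus) for TUBA1C, chr6:30720507-30720509 (plus) for TUBB, chr6:3157461-3157463 (minus) for TUBB2A and chr9:137241361-137241363 (plus) for TUBB4B.
TUBA1A: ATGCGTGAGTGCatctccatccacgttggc
TUBA1B: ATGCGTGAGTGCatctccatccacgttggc
TUBA1C: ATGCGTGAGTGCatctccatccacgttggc
TUBB: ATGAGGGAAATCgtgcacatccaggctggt
TUBB2A: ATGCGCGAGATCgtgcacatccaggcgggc
TUBB4B: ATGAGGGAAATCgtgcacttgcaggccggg

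The 3 alpha-tubulins shared all of these first 12 bases, and TUBB and TUBB4B shared theirs. The bases of TUBB2A differed, but they encode the same residues as those of TUBB and TUBB4B. Likeness within the families also bears on how well reads can be assigned. The coding sequences of TUBA1B and TUBA1C were 96.8% identical with a longest shared run of 326 bases, and TUBA1A shared runs of 221 bases with TUBA1B and 164 with TUBA1C. TUBB2A and TUBB4B shared a run of 143 bases, while TUBB shared no more than 35 with either. ACTB and ACTG1 were 91.3% identical with a longest run of 59. No source used here says how reads that match several genes were counted, which leaves counts of the alpha-tubulins, of TUBB2A and of TUBB4B uncertain to that extent.

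The actin genes have a further sequence feature of interest, the CArG box that SRF binds. Promoter sequences from RefSeq (GRCh38.p14, 250 bases before to 50 after a start site) were matched for 9 of the 10 genes, in 12 windows. ACTB had no entry. The CArG box was found on either strand in 1.29% of all 35116 promoters and, of the 9 genes, in that of ACTG1. TATAAA was found in 11.53% of all promoters and in that of TUBB2A, CCAAT in 34.61% and in those of 6 of the genes, and GGGCGG in 44.95% and in those of 7. A stretch of ACTG1 is given because it holds the CArG box, and one of TUBB4B because it holds 3 CCAAT boxes. The latter was picked with the rise of TUBB4B in labelled RNA known. No CCAAT was found for TUBA1B and TUBB2A, which rose by 2.81- and 2.68-fold, or for PFN1, which rose by 1.87-fold. Whether the motif bears on the rise was not tested. Capitals mark the motifs searched, on either strand. The CArG box of ACTG1 starts 94 bases before the start site and is shown with 10 bases to each side (chr17:81512874-81512903, minus strand). The TUBB4B stretch ends where an annotated first exon begins (chr9:137241037-137241212, plus strand). A match of letters is a description of the sequence and no evidence of binding in these cells.
ACTG1: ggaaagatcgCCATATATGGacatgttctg
TUBB4B: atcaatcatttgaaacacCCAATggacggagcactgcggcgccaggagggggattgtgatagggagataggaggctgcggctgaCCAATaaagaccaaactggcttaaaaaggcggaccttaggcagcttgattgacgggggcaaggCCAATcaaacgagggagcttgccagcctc

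The first comparison asked how much more labelled RNA of each gene there was with the longer label, with the fly spike-in as the yardstick. Levels are reads per 1000 fly reads, called the fly scale. Fly and human RNA were combined by weight in set amounts, so the fly scale gives labelled RNA relative to the total human RNA taken. The number of cells does not enter it, and a difference in total RNA per cell cannot be read from it. Labelled RNA of the tubulin genes rose by 2.10- to 2.81-fold, that of cofilin and profilin by 1.64- and 1.87-fold, and that of ACTG1 by 1.34-fold, while ACTB, at 1.23-fold, did not pass the test. In all, 9 of the 10 genes rose, where 98.4% of all tested genes did, and in all 10 both 15 min libraries lay above both 5 min libraries, as in 99% of tested genes. The number that rose is therefore near the background, and it is the size of the rise that set the genes apart from each other. Their median fold was 2.11, against 3.20 for all tested genes, and the label time itself grew by 3 times. Folds are from edgeR's quasi-likelihood test with library sizes set to the fly totals and Benjamini-Hochberg adjustment. An error in the fly totals would move all genes together, which these p-values do not measure.

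ACTB, which encodes beta-actin, lies at 5527147 to 5563784 on chromosome 7. It had 6.84 and 8.72 reads per 1000 fly reads in the 5 min libraries and 9.17 and 9.93 in the 15 min libraries. The 15 min libraries were the higher ones and did not overlap the 5 min ones, but the closest of them, at 8.72 and 9.17, lay near each other. The log2 change was 0.30 ± 0.176 (SE, adjusted p = 0.0942). The test was passed with DESeq2 (adjusted p = 0.0408) and with library 5-2 left out (log2 change 0.48, adjusted p = 7.84e-09), and not in the other 6 alternatives, where the adjusted p reached 0.52. With library 5-1 left out the log2 change was 0.13. Per minute of label, ACTB gave 1.56 ± 0.266 reads per 1000 fly reads with the short label and 0.636 ± 0.0360 with the long one (SD, n = 2 each).

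ACTG1, which encodes gamma-actin (chromosome 17, 81509971 to 81523847), went from 2.26 and 2.88 reads per 1000 fly reads to 3.34 and 3.52. The libraries did not overlap by label time, and the log2 change was 0.42 ± 0.167 (SE, adjusted p = 0.0124). That call was lost when library 15-1 was dropped (log2 change 0.46, adjusted p = 0.185) and when 15-2 was dropped (0.38, adjusted p = 0.263). Of all tested genes, 0.479% had a lower fold than ACTB and 0.779% a lower fold than ACTG1.

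CFL1, the gene of cofilin 1 (chromosome 11, 65823022 to 65862026), had 1.28 and 1.62 reads per 1000 fly reads after 5 min and 2.29 and 2.44 after 15 min. Its log2 change was 0.71 ± 0.166 (SE, adjusted p = 2.12e-05). PFN1, the gene of profilin 1 (chromosome 17, 4945652 to 4949061), had 1.12 and 1.305 after 5 min and 2.18 and 2.35 after 15 min, a log2 change of 0.90 ± 0.166 (adjusted p = 7.39e-08). Both genes rose more than the actins did in point estimate, and 2.53% and 5.40% of tested genes had a lower fold than they.

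Among the alpha-tubulin genes, which lie within a short stretch of chromosome 12, TUBA1B (49127782 to 49131397) had 1.79 and 1.97 reads per 1000 fly reads after 5 min and 5.44 and 5.11 after 15 min. This was the largest rise of the 10 genes, 2.81-fold (log2 change 1.49 ± 0.170 SE, adjusted p = 8.47e-18), and 34.0% of tested genes had a lower fold. TUBA1C (49188736 to 49274603) went from 0.849 and 1.10 to 2.08 and 2.44, a 2.31-fold rise (log2 change 1.21 ± 0.167, adjusted p = 7.72e-13). TUBA1A (49184796 to 49189324), the alpha-tubulin typical of neurons, was close to silent here, with 22 and 28 reads after 5 min and 16 and 23 after 15 min. Its 2.10-fold rise on the fly scale (log2 change 1.07 ± 0.353, adjusted p = 0.00252) did not pass with DESeq2 (adjusted p = 0.0617) or with library 15-2 left out (log2 change 0.76, adjusted p = 0.15). TUBA1A and TUBA1C overlap by 589 bases on opposite strands, and no source used here states the strand setting of the counting.

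Of the beta-tubulin genes, TUBB on chromosome 6 (30720201 to 30725426) gave the most reads. It had 5.95 and 7.45 reads per 1000 fly reads after 5 min and 14.2 and 14.3 after 15 min, a 2.13-fold rise (log2 change 1.09 ± 0.180 SE, adjusted p = 2.48e-09). TUBB4B on chromosome 9 (137241213 to 137243707) went from 1.09 and 1.21 to 3.24 and 2.93, a 2.68-fold rise (log2 change 1.42 ± 0.168, adjusted p = 7.72e-17). TUBB2A on chromosome 6 (3153669 to 3157526) was low, at 0.0858 and 0.133 after 5 min and 0.289 and 0.295 after 15 min, and rose by 2.68-fold (log2 change 1.42 ± 0.213, adjusted p = 4.46e-11). Labelled reads of TUBB4B per minute of label were 0.230 ± 0.0180 with the short label and 0.206 ± 0.0149 with the long one, per 1000 fly reads (SD, n = 2 each), and those of TUBA1B 0.376 ± 0.0251 and 0.352 ± 0.0156. The means of TUBB went from 1.34 ± 0.212 to 0.949 ± 0.00744 and those of TUBA1C from 0.195 ± 0.0361 to 0.151 ± 0.0170. The yields per minute were not tested.

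**Figure D1:**
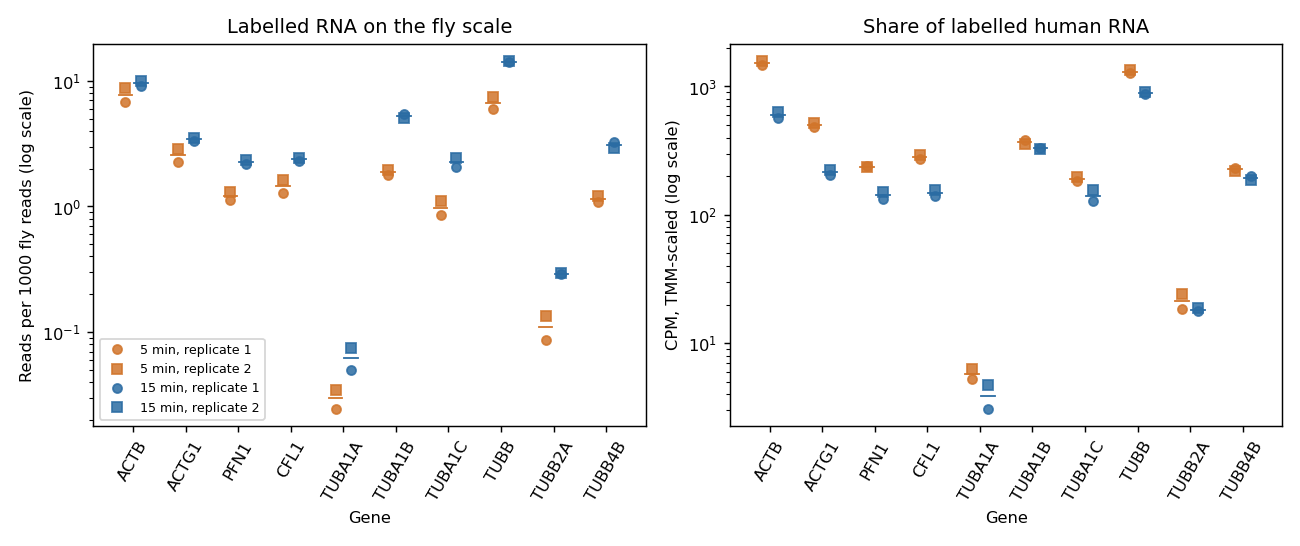
Labelled RNA of each gene in the 4 libraries, as reads per 1000 fly reads (left) and as CPM (right), both on log axes; circles and squares are replicates 1 and 2 and short lines are means. On the fly scale the 15 min points lie above the 5 min points for all 10 genes, from 6.84 to 9.93 over the libraries for ACTB, and as CPM they lie below for all but TUBB2A.

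**Figure D2:**
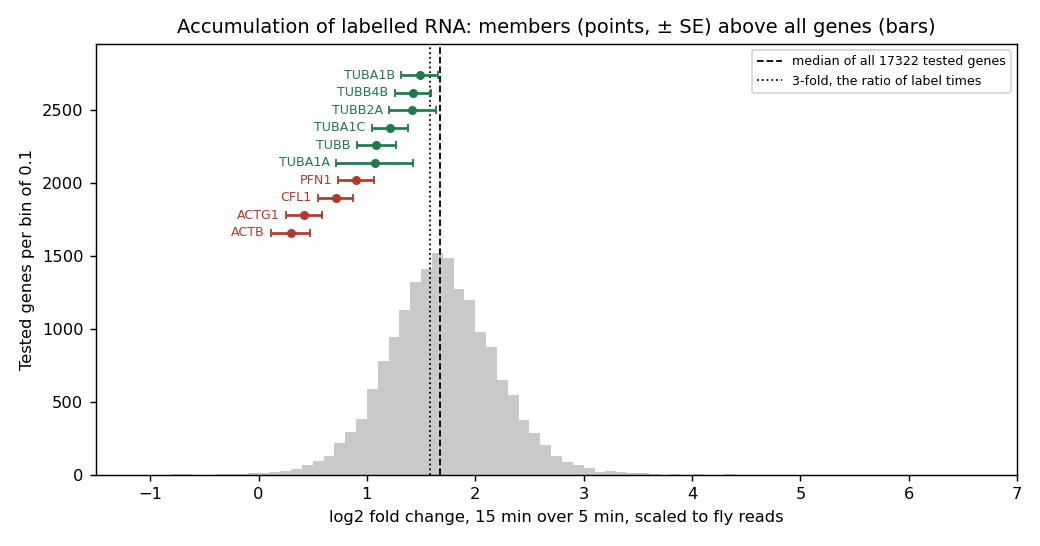
Histogram of the log2 change between 5 and 15 min on the fly scale for the 17322 tested genes, with the 10 genes as points with their SE (red for actin genes and regulators, green for tubulins; their height has no meaning). All 10 points lie left of the median of all genes, from 0.30 for ACTB to 1.49 for TUBA1B.

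Read counts within a library can be set against each other with no scaling between libraries, so 5 pairs of genes were compared in this way. With 2 libraries against 2 the smallest two-sided exact permutation p is 0.33, and no pair could pass a threshold of 0.05. ACTB had 3.82 and 4.43 times the reads of TUBA1B in the 5 min libraries and 1.68 and 1.94 times in the 15 min libraries. The label times did not overlap, and the log2 ratio fell from 2.04 ± 0.151 to 0.86 ± 0.146 (SD, n = 2 each, exact permutation p = 0.33, adjusted over the 5 pairs 0.417). Leaving out any library in turn kept the difference between -1.29 and -1.08 on the log2 scale. This is larger than the spread between libraries, and it is free of both the fly totals and the TMM factors.

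The actins moved nearly together. ACTB had 3.03 times the reads of ACTG1 in each 5 min library and 2.74 and 2.82 times in the 15 min libraries, a difference of -0.12 in log2 ratio, small but beyond the spread of the libraries (exact permutation p = 0.33). PFN1 went from 0.877 and 0.807 times the reads of CFL1 to 0.951 and 0.963 times (log2 difference 0.19). Among the beta-tubulins, TUBB had 5.47 and 6.13 times the reads of TUBB4B after 5 min and 4.36 and 4.89 times after 15 min (log2 difference -0.33), so that TUBB made up 84.1% ± 0.815 of the reads of the 3 beta-tubulin genes with the short label and 80.8% ± 1.13 with the long one (SD, n = 2 each). TUBA1B had 2.11 and 1.78 times the reads of TUBA1C after 5 min and 2.62 and 2.09 times after 15 min, and here the label times overlapped (exact permutation p = 0.67).

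**Figure D3:**
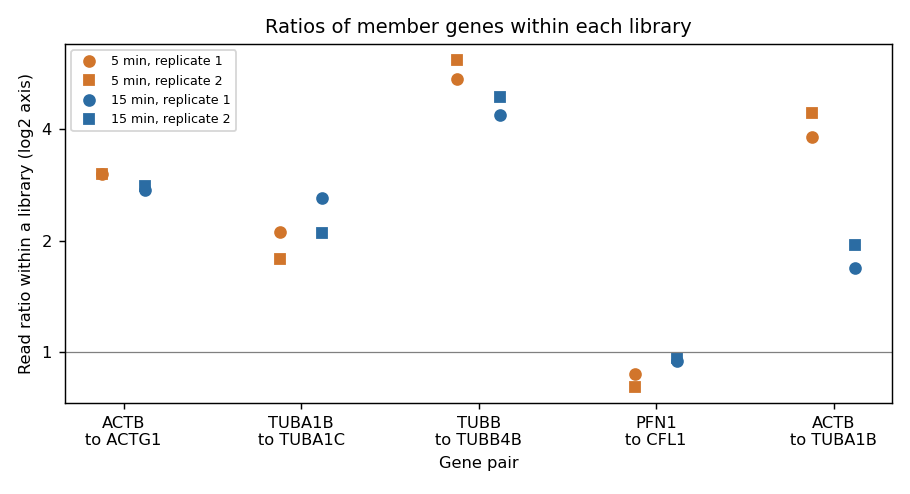
Ratio of the reads of 2 genes within each library for 5 gene pairs, on a log2 axis, with 5 min libraries in orange and 15 min libraries in blue. The ratio of ACTB to TUBA1B drops from 3.82 and 4.43 to 1.68 and 1.94, and only for TUBA1B to TUBA1C do the label times overlap among the 5 pairs.

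The second comparison asked which genes took a smaller or larger share of the labelled human RNA of that time point. Here the human reads of a library, with TMM factors, set the scale, and levels are CPM. Of the 10 genes 8 fell and 0 rose after 15 min, where 21.3% of all tested genes fell and 16.8% rose, and where 29.3% of 11980 well-read genes (mean log2 CPM from 3 up) fell. These counts depend on the TMM factors. Scaled to total human reads without them, 6 of the 10 genes fell, and over all tested genes 2792 fell and 4253 rose. The 10 genes together took 0.44% and 0.452% of the human reads after 5 min and 0.267% and 0.284% after 15 min. The actins lost the most. For 9 of the genes both 15 min libraries lay below both 5 min libraries, against 33% of tested genes. The test was again edgeR's quasi-likelihood test, with Benjamini-Hochberg adjustment over all tested genes. It uses the same libraries and reads as the first comparison and is no independent evidence of it.

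ACTB went from 1465 and 1569 CPM to 563 and 630 CPM, a log2 change of -1.35 ± 0.0624 (SE, adjusted p = 3.37e-99). ACTG1 went from 484 and 519 CPM to 205 and 224 CPM, a log2 change of -1.23 ± 0.0623 (adjusted p = 1.57e-82). In both actins the share after 15 min was 0.393 and 0.428 times that after 5 min. CFL1 went from 274 and 291 CPM to 141 and 155 CPM (log2 change -0.93 ± 0.0661, adjusted p = 5.8e-43) and PFN1 from 240 and 235 CPM to 134 and 149 CPM (-0.75 ± 0.0673, adjusted p = 9.78e-27). For these 4 genes the libraries of a label time lay close together and far from those of the other.

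TUBB fell from 1274 and 1340 CPM to 870 and 908 CPM (log2 change -0.56 ± 0.0615 SE, adjusted p = 5.14e-18) and TUBA1C from 182 and 199 CPM to 128 and 155 CPM (-0.43 ± 0.0691, adjusted p = 4.84e-09). These 6 genes passed under all 9 alternatives run. TUBB4B, from 233 and 219 CPM to 199 and 186 CPM (-0.23 ± 0.0655, adjusted p = 0.00222), and TUBA1B, from 384 and 354 CPM to 334 and 324 CPM (-0.16 ± 0.0610, adjusted p = 0.0219), were close to the threshold. Scaling to total counts ended both calls, at log2 changes of -0.12 (adjusted p = 0.123) and -0.06 (adjusted p = 0.456), as did DESeq2 (adjusted p = 0.0595 and 0.123). Dropping library 15-2 gave them adjusted p = 0.0563 and 0.108, and dropping 5-1 gave 0.0567 and 0.254. Dropping 15-1 gave TUBA1B an adjusted p of 0.0572. TUBA1A (-0.57 ± 0.326, adjusted p = 0.158) and TUBB2A (-0.22 ± 0.164, adjusted p = 0.289) did not pass, and they had the fewest reads of the 10 genes, 16 to 28 and 77 to 107 per library.

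The order of the genes by level differed between the label times. Levels are given here as CPM per kb of all annotated exons together, as mean ± SD (n = 2 each). After 5 min ACTB stood first at 431 ± 21.0 and TUBB second at 389 ± 14.0, with no overlap between their libraries. ACTG1 (167 ± 8.16), PFN1 (120 ± 1.91), TUBB4B (107 ± 4.79), TUBA1B (103 ± 5.80), CFL1 (48.2 ± 2.07), TUBA1C (41.1 ± 2.57), TUBB2A (12.3 ± 2.28) and TUBA1A (1.68 ± 0.21) followed, and among these neighbours TUBB4B and TUBA1B overlapped. After 15 min TUBB stood first at 265 ± 8.08 and ACTB second at 169 ± 13.4. They were followed by TUBA1B (92.1 ± 1.99) and TUBB4B (91.2 ± 4.52), which overlapped, and by ACTG1 (71.7 ± 4.28) and PFN1 (71.3 ± 5.44), which overlapped as well. TUBA1C (30.5 ± 4.12), CFL1 (25.2 ± 1.70), TUBB2A (10.5 ± 0.389) and TUBA1A (1.141 ± 0.339) came last.

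Annotated exons include those of rare transcripts, and the level of CFL1 turns on that choice, since its exons span 5863 bases in all and 1234 in the principal transcript. Per kb of the principal transcript, a length chosen after the data were seen, CFL1 ranked 4 at both label times in place of 7 after 5 min and 8 after 15 min. On that scale its libraries overlapped those of TUBA1B after 5 min and those of TUBB4B and PFN1 after 15 min. ACTB again had the highest mean after 5 min. After 15 min TUBB had the highest mean, but its libraries (326 and 340) overlapped those of ACTB (293 and 328). No source used here states the feature over which reads were counted. Bases outside every annotated exon make up 90.4% of the span of ACTB, 84.97% for CFL1 and 94.6% for TUBA1C. They make up 1.16% for TUBA1B and 15.4% for TUBB4B. Spans and exons here are those of all annotated transcripts, rare ones included, so these are not the intron shares of the principal transcripts. The annotated exons of TUBA1B cover 3574 bases in all, and the 4 exons of its principal transcript 1627. The part of intron length in these levels was not tested.

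The authors' deposited table gives a production rate for each gene in untreated cells, with no scale, time unit or replicate. Its values have a median of 0.0114 over 11777 genes. TUBB, at 0.741, ranked 35th from the highest, TUBB4B (0.245) 127th, PFN1 (0.207) 152nd, ACTB (0.114) 318th and ACTG1 (0.0976) 392nd. TUBB2A, at 0.0270, was above 76.4% of genes. TUBA1A stood at 0.00380, above 25.2% of genes. Between the rate and the labelled reads per kb of exon the Spearman correlation was 0.911 across 11688 genes, which are not independent replicates and share library and length.

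The rates of TUBA1C and CFL1 in the authors' deposited table stood apart from their reads. CFL1 had a rate of 0.000147, above only 1.78% of genes, although its labelled reads per kb of exon were above those of 92.4% of the genes in the table. It had the lowest ratio of rate to reads per kb among 11687 genes with a rate above 0. Of the 788 genes of the table with at least the mean CPM of CFL1, no other had a rate as low, and their median was 0.0717. TUBA1C had a rate of 0.00107, above 10.9% of genes, with reads per kb above those of 92.1%, and 0.299% of genes had a lower ratio of rate to reads per kb. The same ratio was below that of most genes for ACTB (3.68% of genes lower) and ACTG1 (11.3%), while for the other 5 genes with a rate 77.6% to 89.7% of genes had a lower ratio. No source used here states how the rates were computed.

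**Figure D4:**
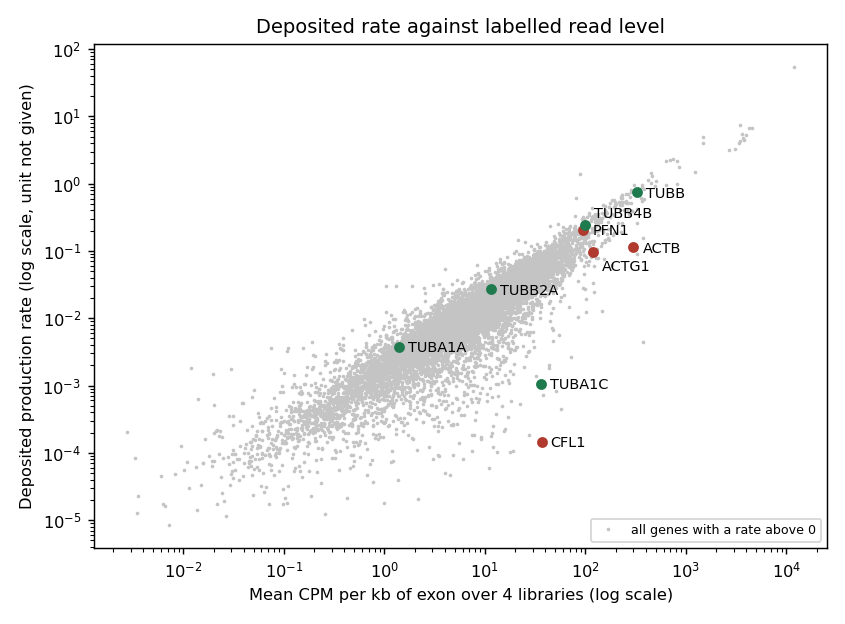
Production rate in the authors' deposited table against mean CPM per kb of exon over the 4 libraries, both on log axes, with all genes in grey, actin genes and regulators in red and tubulins in green. CFL1 (0.000147) and TUBA1C (0.00107) lie far below the band of other genes of like read level, and TUBA1B is not shown.

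Other genes of the actin and tubulin systems were read from 10 lists of 128 genes, of which 110 were tested. In share of labelled RNA 61 fell, 5 rose and 44 did not pass, with a median log2 change of -0.31 against 0.03 for all tested genes. That is 55.5% lower and 4.55% higher, where 21.3% of all tested genes fell, 29.3% of well-read ones fell and 16.8% of all rose. The lists were chosen with earlier results of these data known, so this difference is a description and no test of an excess. The counts of the single lists below are to be read against the same shares, with the same limit. On the fly scale 106 of the 110 rose (96.4%), close to the 98.4% of all tested genes, with a median of 2.53-fold against 3.20. Of the 17 tested genes that bind, sever or cap actin (median share change -0.58), 11 fell (64.7%) and 1 rose. TMSB10, a thymosin that sequesters actin monomers, fell by 0.96 on the log2 scale, its relative TMSB4X by 0.30 and the capping protein gene CAPZA1 by 0.69. WDR1, whose protein helps cofilin to disassemble filaments, had a log2 change of 0.00 (adjusted p = 0.997).

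Of 18 nucleation genes 11 fell (61.1%) and 1 rose (median -0.38). ACTR2, an actin-related subunit of the Arp2/3 complex that starts branched filaments, fell by 1.20 on the log2 scale and its partner ACTR3 by 0.43. The formin gene DIAPH1 fell by 0.61 and WASF2, an activator of Arp2/3, by 0.47. Of 20 genes for crosslinkers, adaptors and myosin 14 fell (70%) and 0 rose (median -0.41). FLNA, the filamin that crosslinks actin filaments, fell by 1.51, beyond ACTB, and on the fly scale it stood at 1.10-fold (adjusted p = 0.415). Talin (TLN1) fell by 1.17, moesin (MSN) by 1.01 and vinculin (VCL) by 0.31.

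Of 9 genes for kinases and phosphatases of the cofilin pathway 2 fell and 2 rose (22.2% each, near the shares of all genes), with a median of 0.16. Those that fell were ROCK1 by 0.51 and ROCK2 by 0.59, kinases that act on the LIM kinases and not on cofilin itself. LIMK1, a kinase that inactivates cofilin, had a log2 change of -0.05 (adjusted p = 0.783). SRF and its coactivator genes MRTFA and MRTFB did not pass, at -0.09 (adjusted p = 0.455), 0.16 (0.382) and 0.04 (0.758). On the fly scale SRF rose by 2.93-fold, MRTFA by 3.52-fold and MRTFB by 3.24-fold, values near the median of all genes and above those of both actins.

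On the tubulin side, 2 of 7 tested genes for other tubulins fell (28.6%, near the shares of all and of well-read genes) and 0 rose (median -0.07): TUBB6 by 0.18 (adjusted p = 0.0458) and the gamma-tubulin gene TUBG1, which nucleates microtubules, by 0.54. TUBE1 had a log2 change of 0.20 (adjusted p = 0.108). Of the 3 genes for tubulin mRNA autoregulation, CNOT11, a part of the CCR4-NOT deadenylase, fell by 0.73. TTC5 (-0.05, adjusted p = 0.803) and SCAPER (0.06, adjusted p = 0.814) did not pass. Of 12 tubulin folding cofactor and prefoldin genes 7 fell (58.3%) and 1 rose (median -0.42): VBP1, a prefoldin subunit, fell by 1.17, TBCD fell by 0.44 and TBCC rose by 0.65, while TBCE (-0.14, adjusted p = 0.149) and PFDN5 (-0.13, adjusted p = 0.206) did not pass. Of 21 genes for microtubule binding and tubulin modification 13 fell (61.9%) and 0 rose (median -0.28), among them CKAP5, which speeds microtubule growth, by 0.81, the plus-end protein gene MAPRE1 by 0.87 and the stathmin gene STMN1 by 0.22. MAP1B had a log2 change of -0.01 (adjusted p = 0.954).

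Outside the naming rule, and chosen after their values were seen, the other 4 genes that rose in share were ARPC5L (0.33 on the log2 scale), CFL2 (0.26), TESK1 (0.69) and TESK2 (0.49). Besides FLNA, the genes that did not pass on the fly scale were DSTN, a relative of cofilin, at 1.19-fold (adjusted p = 0.24), CAPG at 1.27-fold (adjusted p = 0.231) and STMN3 at 1.06-fold (adjusted p = 0.684).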

How the data were processed

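TT-seq libraries of untreated K562 cells, 2 per label time, were used. The human and fly tables hold raw counts as deposited, and the deposited rate table holds a score per gene, named as a synthesis rate in its header and with no unit. The submitters' processing notes name STAR 2.7, Subread 2.0.1, featureCounts, bcl2fastq 2.17.1.14 and edgeR, and the builds hg38 and dm6, without roles. No source used here gives the counting feature, the strand setting or how shared reads were treated.

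Symbols, positions and exon lengths came from GENCODE 29, where all 10 genes and all listed genes were found. The whole human table was fitted with edgeR 4.0.16 (filterByExpr with a minimum count of 10, robust quasi-likelihood test, label time as the only term), with TMM factors for share and with fly totals as library sizes for accumulation. P-values are two-sided with Benjamini-Hochberg adjustment over all tested genes at 0.05, and SEs come from the F statistic. DESeq2 was version 1.42.0. The fits were also run on simulated counts with the same dispersion for every gene, which is no check of the calls made here. The genes and lists were chosen with earlier results of these data known. From each further list the 3 genes with the highest mean CPM and the 2 with the smallest p are named, with the 5 pseudogene copies of highest CPM, the overlapping genes and the 5 genes of most similar profile. Alternatives were DESeq2, total counts, fly TMM factors, no filter, the replicate block, no mitochondrial genes and each library left out. No molecular identifiers are given, so reads copied from the same molecule cannot be told apart from reads of separate molecules. SEs and p-values include the spread between libraries, as estimated by the fits.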

Additional observations from a re-analysis of the deposited data

How the results depend on the processing

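No value of the 10 genes changed direction in any alternative. Of 89 share values with an adjusted p, over 9 alternatives, 80 stayed on their side of the threshold and 9 missed it, all of TUBA1B and TUBB4B. DESeq2 gave no adjusted p for the share of TUBA1A. Of 80 accumulation values over 8 alternatives 74 stayed, 4 missed it (ACTG1 and TUBA1A) and 2 newly passed (ACTB). The number of the 10 genes that fell in share was 6 to 8, and the number that rose on the fly scale 7 to 10, also when each library was left out in turn. Over all genes, DESeq2 called 3293 in share in place of 6607. Under total-count scaling the all-gene median was 0.13 on the log2 scale in place of 0.03, and 60.4% of calls were higher in place of 44.1%. With the replicate number as a block 8 of the 10 genes fell, as without it, of 6958 genes called in all, and 9 rose on the fly scale. Whether same-numbered libraries of the 2 label times are paired is not given. The correlation of their deviations over genes was 0.0487, which does not settle it. TUBA1A and TUBB2A had the fewest reads.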

Other observations

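Processed pseudogenes, inserted copies of spliced mRNAs, are numerous for these genes. Of 66 annotated pseudogene copies 28 had reads and 6 could be tested, and all copies together had 150 and 157 reads in the 5 min libraries and 260 and 308 in the 15 min libraries, 0.706% to 2.29% of the reads of the 10 genes. Of the 5 copies with the highest CPM, 3 rose in share and the other two did not pass, and their difference from the parent genes was not tested. ACTG1P14, which lies in KDM4C on the same strand, had 17 and 19 reads after 5 min and 62 and 62 after 15 min and rose in share by 1.56 on the log2 scale (± 0.267 SE, adjusted p = 5.41e-08, edgeR). ACTG1P20, in TMEM222 on the same strand, rose by 1.07 (adjusted p = 1.99e-05) and ACTG1P3, in PSMF1 on the same strand, by 0.86 (adjusted p = 0.00728). TUBB4BP2, in DCAF12, had a log2 change of 0.34 (adjusted p = 0.38) and ACTBP11, which overlaps no annotated gene, one of 0.50 (adjusted p = 0.332). On the fly scale these 5 copies rose by 3.98- to 9.24-fold. Reads of such copies cannot be told apart from those of the gene around them where the counting does not separate them. How reads that match both a copy and its parent gene were counted is not given either.

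Of the genes that overlap the 10 genes on the other strand, apart from TUBA1A and TUBA1C, which overlap each other, 2 passed the test in share. MUS81 and SNX32, which overlap CFL1, rose in share by 0.33 (adjusted p = 0.00808) and 0.65 (adjusted p = 0.000109), and AL662797.1, an antisense gene within TUBB with 142 to 233 reads a library, had a log2 change of 0.22 (adjusted p = 0.146). ENO3, which overlaps PFN1, had 0.11 (adjusted p = 0.696), and FAM166A, which overlaps TUBB4B, 0.57 (adjusted p = 0.114). The other overlapping genes had at most 20 reads in a library, apart from TUBA1A and TUBA1C themselves.

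Of 11971 well-read genes (mean log2 CPM from 3 up), the 5 whose profile over the 4 libraries lay closest to the mean profile of the 10 genes, by Euclidean distance of centred log2 CPM, were CUL4B (0.0162), ADH5 (0.0164), KDM1A (0.0209), LMNA (0.0248) and ABCB10 (0.0268). Their share fell by 0.63 to 0.67 on the log2 scale and their labelled RNA on the fly scale stood at 1.97- to 2.03-fold. They were chosen by these same libraries, so values near the mean of the 10 genes follow from the choice. That mean covers share changes from -1.35 to -0.16 on the log2 scale.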
